A study of Homo sapiens with 12 samples.

Results

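The toxin's effect on Caco-2 cells that also carried bacteria was described from 6 of the 12 RNA-seq libraries of the series: 3 of the co-treated (combined) group and 3 of the group given bacteria alone. Caco-2 cells come from a human colon carcinoma and, once confluent, differentiate into a polarised sheet that resembles enterocytes. Per the labels, all groups were grown on transwell inserts for 21 days and then held in HBSS buffer with HEPES. The combined group received ochratoxin A (OTA) at 15 µmol/L together with Bacillus subtilis CW14 in the apical chamber, and the CW14 group received the same bacteria without OTA. The remaining libraries, 3 untreated controls and 3 with OTA and no bacteria, entered the shared estimate of the spread and the comparison with the toxin effect in the absence of bacteria. The time of exposure is not stated in the labels. Members were chosen by the sample titles and the matching column names of the deposited table, not by any measured value.

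Ochratoxin A is a food contaminant made by Aspergillus and Penicillium moulds, and the intestinal epithelium is the first tissue it meets. Epithelial cells answer bacterial products through pattern recognition receptors that activate the transcription factor NF-kB, whose targets include chemokines that attract neutrophils and the inhibitors that switch the pathway off again. Immediate early genes are transcribed within minutes after a stimulus, without new protein synthesis, and their messages, like those of many cytokines, are short-lived. The epithelium's seal depends on tight junctions, in which claudins and occludin span the membrane and ZO proteins tie them to actin.

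Levels are given in FPKM, the authors' unit of fragments scaled to transcript length and library size, and differences on the log2(FPKM + 1) scale as the combined group minus the CW14 group, with a standard error (SE) from limma. A gene was called at a Benjamini-Hochberg adjusted p under 0.05 over the 12928 genes whose mean over the 12 libraries reached 1 FPKM. This scale understates changes of low genes, and absolute depth is not given by FPKM. The labels do not state whether the replicates came from separate cultures, so p-values measure the spread between these libraries, which may be technical. In bulk RNA, fewer cells of a kind and less RNA per cell cannot be told apart.

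Combined replicate 3 stood apart from the other libraries. Its residual SD on the log2 scale was 0.588, against 0.305 to 0.424 in the other 11 libraries, and it lay outside the range of the other 5 libraries in 8800 of 12909 named genes (68.2%), compared with 20.5% to 35.3% for each of those 5. Its relative depth, read from the steps of low FPKM values, was the lowest of the 12 at 0.470 of control replicate 1. Counts of called genes in the lists are therefore also given without it, as are named differences that it moved by more than 1.5 times or whose call it decided. Of 17 enterocyte markers, 15 were measured above the filter and CDX1 and SI stayed under 1 FPKM in all 6 libraries, while VIL1, the microvillus protein villin, was at 24.7, 20.2 and 25.5 FPKM in CW14 and 23.7, 29.4 and 30.2 in the combined libraries. Of 18 markers of other cell types, 8 passed the filter. PTPRC, COL1A2, DCN and HBB were listed at 0 in all 6 libraries, and the summed level of the 18 was 123 to 148 FPKM in CW14 and 131 to 159 in the combined group. Of the 8, CD14 and LYZ were higher in the combined group, with and without combined replicate 3. The myeloid marker CD14 ranged from 7.61 to 9.20 FPKM in CW14 and from 13.4 to 17.5 in the combined group. LYZ, lysozyme, was at 34.2, 31.4 and 26.9 FPKM in CW14 and 58.7, 43.0 and 38.1 in the combined group. The summed level of the 17 enterocyte markers was 8528 to 9400 FPKM in CW14 and 10277 to 26983 in the combined group, with APOA1 called higher and KRT20 lower. That sum is weighted to high genes such as APOA1, and the median difference of the 15 tested markers was -0.14. Without combined replicate 3 the median was -0.22, with 1 marker higher and 3 lower. The part of these markers in the results was not tested.

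With the bacteria present, OTA changed about as many genes upward as downward in the fit to all 12 libraries, but the large changes were falls. In all, 1919 genes were higher in the combined group (14.8%) and 2260 lower (17.5%), 32.3% of those tested, while the median difference over all genes was 0.02. A fall of at least 2 on the log2 scale was seen for 178 called genes and a rise of that size for 19. Falls of at least 3 numbered 55 and rises of that size 3. Without combined replicate 3, 1940 genes were higher and 2416 lower (33.7%). Of the 4179 genes called with that library, 3551 (85.0%) were called without it in the same direction and 0 in the opposite one. With only the groups compared in the fit, that is combined and CW14, 504 genes were higher (3.9%) and 1017 lower (7.87%). The near balance of directions therefore depended on the groups fitted.

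Neither direction was evenly spread over transcript composition. The median GC content of transcripts was 56.9% for the genes that were higher, 46.0% for those that were lower and 49.8% for the rest, and without combined replicate 3 the values were 55.3%, 46.7% and 50.1%. The corresponding medians for OTA against control were 50% for both directions. A fit in which each library was smoothed on GC content, added after the data were seen, called 1748 genes higher and 2136 lower, and 3115 of the calls were shared. Its counts were close to those of the first fit for most lists, and they are given for several lists that it moved.

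**Figure D1:**
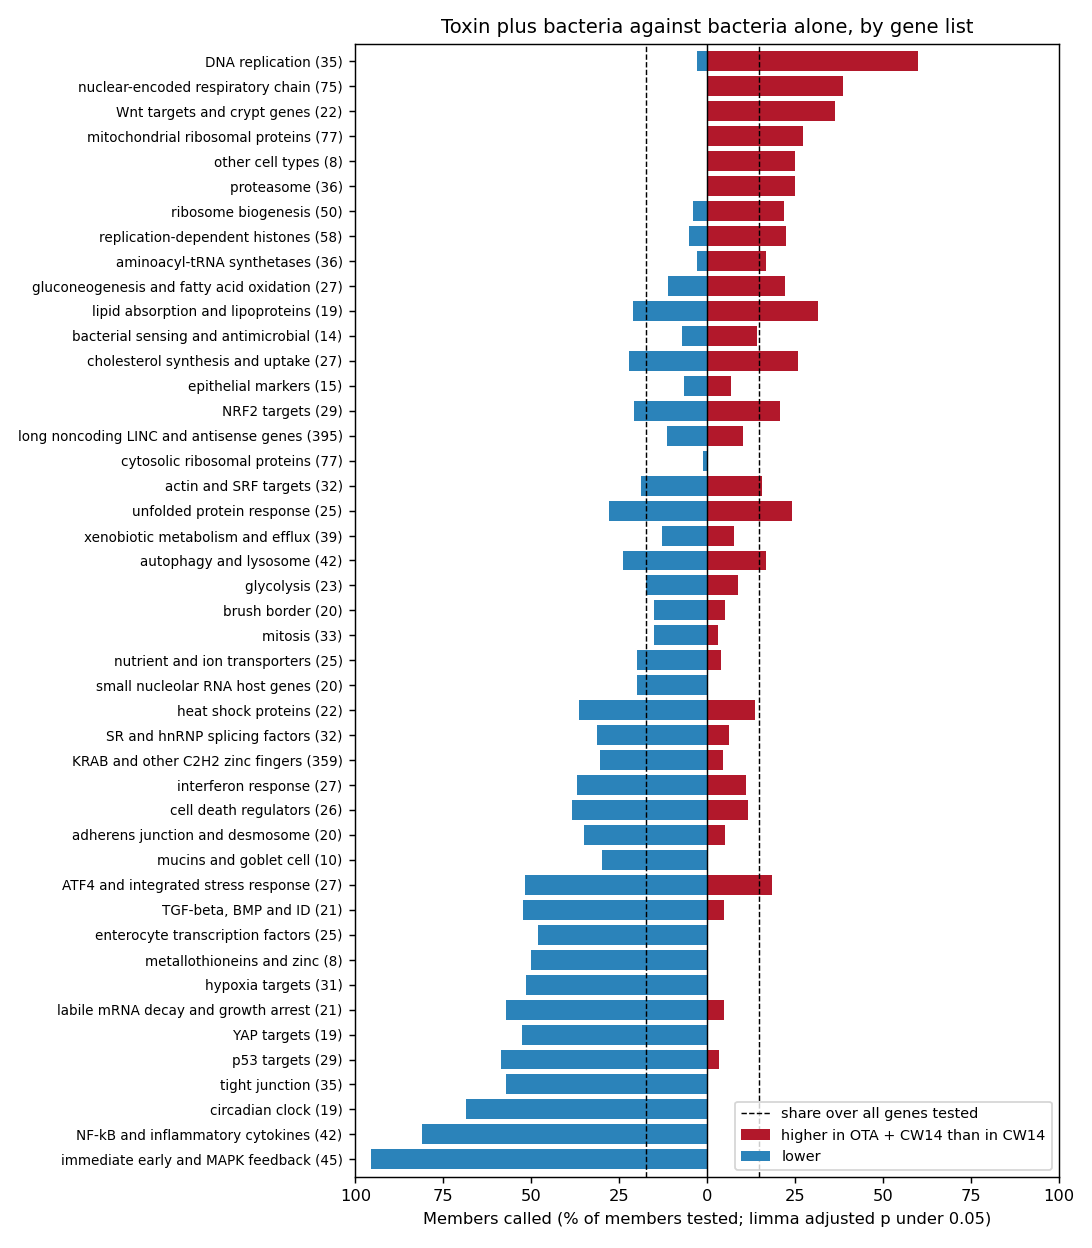
Share of each gene list's tested members (number in parentheses) that were called higher (right) or lower (left) in the 3 combined libraries than in the 3 CW14 libraries; the dashed lines give the shares over all 12928 genes tested, 14.8% and 17.5%. Immediate early and NF-kB genes lie at the bottom with 43 of 45 and 34 of 42 lower, and DNA replication at the top with 21 of 35 higher.

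Immediate early genes were lower almost throughout, with the highest share of called members of the lists examined (95.6%). Of 45 tested, 43 were lower and 0 higher, with a median difference of -2.31 against 0.02 over all genes, and the same number fell without combined replicate 3 (median -2.19). The exceptions were IER5L and SRF, with differences of -0.07 and -0.20 that did not pass the test. EGR3 and NR4A3 were below the filter.

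ATF3, a stress-induced transcription factor of the ATF and CREB family, was at 321, 248 and 265 FPKM in the 3 CW14 libraries and at 16.1, 17.2 and 11.8 in the combined ones. No combined library came near the lowest CW14 library, but the rule that named the gene required separate groups. The difference was -4.13 (SE 0.18, limma adjusted p = 1.07e-07). DUSP1, which dephosphorylates and so inactivates MAP kinases, fell from 205, 181 and 158 to 15.0, 10.0 and 6.11 FPKM (-4.07, SE 0.23). DUSP5, a nuclear phosphatase of ERK, fell from 349.9, 326 and 341 to 17.6, 21.2 and 22.1 FPKM (-4.00, SE 0.17). The pseudokinase gene TRIB1 fell from 163, 129.7 and 178 to 11.01, 9.53 and 6.32 FPKM. FOS, named with JUN, MYC and EGR1 after its values were seen, was at 155, 128 and 87.8 FPKM with bacteria alone and 12.6, 14.5 and 9.49 with the toxin added. JUN, its partner in the AP-1 dimer, went from 457, 365 and 374 to 43.6, 44.2 and 23.3 FPKM. MYC showed a smaller fall, from 94.2, 66.3 and 96.6 to 48.4, 58.7 and 28.2 FPKM (-0.95, -0.65 without combined replicate 3). In OTA against control, where 12.9% of all genes were lower, the same list gave 43 of 45 lower, with a median of -2.20.

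EGR1, a zinc finger factor, is a textbook target of SRF, which binds serum response elements, and its promoter is shown because it carries that element. The stretch below is the 250 bases before the RefSeq transcription start in GRCh38.p14 (chr5:138465229-138465478, plus strand), with the CArG box, the core of that element, in capitals at 2 places. Both strands of the same window were searched in 27195 RefSeq promoters on assembled chromosomes. A CArG box was found in 312 (1.15%) of them in 91 of the 9439 tested genes with an entry (0.964%), in 1.4% of those called lower, and in 2 (EGR1 and SRF) of the 36 immediate early members with an entry. The cyclic AMP response element TGACGTCA was in 481 (1.77%) of all promoters, in 2.88% of tested genes, in 3.97% of those called lower and in 5 of those 36 (13.9%), namely JUND, DUSP1, DUSP8, MAFF and AREG. DUSP1 (chr5:172771196-172771445, minus strand) is shown because it was among the 12 largest falls chosen by the naming rule. A match describes letters and not a site in use.
EGR1: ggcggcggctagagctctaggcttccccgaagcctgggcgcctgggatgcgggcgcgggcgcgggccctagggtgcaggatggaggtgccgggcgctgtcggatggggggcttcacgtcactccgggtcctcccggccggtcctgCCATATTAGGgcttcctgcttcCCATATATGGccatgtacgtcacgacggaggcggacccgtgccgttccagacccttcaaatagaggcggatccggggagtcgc
DUSP1: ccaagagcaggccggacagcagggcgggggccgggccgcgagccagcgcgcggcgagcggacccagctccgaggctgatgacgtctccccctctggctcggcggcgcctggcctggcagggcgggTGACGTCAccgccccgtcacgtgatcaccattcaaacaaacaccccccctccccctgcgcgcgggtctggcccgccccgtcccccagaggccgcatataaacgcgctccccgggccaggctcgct

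EGR1 itself was at 191, 216 and 206 FPKM in CW14 and at 19.7, 24.1 and 19.5 in the combined libraries. The groups were far apart (-3.22, SE 0.16, limma adjusted p = 2.01e-07), and the difference was -3.17 without combined replicate 3.

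Genes of NF-kB and the inflammatory cytokines were lower with the toxin, and many had a mean below that of untreated cells. Of 42 tested (51 listed), 34 were lower and 0 higher (median -1.92), and 38 were lower without combined replicate 3 (median -1.71). The combined mean lay below the control mean in 30 of the 42, a difference that was not tested and whose share over all genes was not computed. Relative to CW14, the mean of the members was -1.96, -2.08 and -2.13 in the combined libraries. In the control libraries it was -1.34, -1.23 and -1.30. Over all genes the combined libraries were at -0.05, -0.06 and -0.01. CW14 replicate 2 was the lowest CW14 library for 35 of the 42, against 35.0% of all genes, and 33 were called lower without it.

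The promoters of the 3 GRO chemokines on chromosome 4 and of NFKBIA are shown because the chemokines were among the 12 largest falls and NFKBIA is the pathway's own inhibitor. Each line is the 250 bases before the RefSeq start in GRCh38.p14, with the match to the NF-kB consensus (kB consensus) on either strand in capitals. In the 3 chemokines matches on both strands overlap by all but 1 base. Positions are chr4:73869143-73869392, plus strand for CXCL1, chr4:74099196-74099445, minus strand for CXCL2, chr4:74038690-74038939, minus strand for CXCL3 and chr14:35404750-35404999, minus strand for NFKBIA. The consensus was found in 2610 of 27195 promoters (9.6%), in 11.9% of tested genes, in 11.7% of those called lower, in 12.3% of those called higher and in 14 of the 33 list members with an entry (42.4%), namely CXCL1, CXCL2, CXCL3, CXCL10, CCL20, LTB, IL23A, IL32, NFKBIA, NFKBIZ, NFKB1, REL, TNFAIP3 and BIRC3. List membership was partly chosen for known NF-kB control, so the share is a description.
CXCL1: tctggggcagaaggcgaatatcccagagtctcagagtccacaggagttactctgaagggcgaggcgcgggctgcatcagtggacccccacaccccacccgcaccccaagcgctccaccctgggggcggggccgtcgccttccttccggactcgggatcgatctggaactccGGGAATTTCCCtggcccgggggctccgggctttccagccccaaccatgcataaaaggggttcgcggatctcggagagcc
CXCL2: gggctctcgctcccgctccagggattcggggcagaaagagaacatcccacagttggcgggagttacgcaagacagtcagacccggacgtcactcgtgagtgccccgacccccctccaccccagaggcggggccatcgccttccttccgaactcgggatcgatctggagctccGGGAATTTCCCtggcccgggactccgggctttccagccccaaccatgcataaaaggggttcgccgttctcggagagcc
CXCL3: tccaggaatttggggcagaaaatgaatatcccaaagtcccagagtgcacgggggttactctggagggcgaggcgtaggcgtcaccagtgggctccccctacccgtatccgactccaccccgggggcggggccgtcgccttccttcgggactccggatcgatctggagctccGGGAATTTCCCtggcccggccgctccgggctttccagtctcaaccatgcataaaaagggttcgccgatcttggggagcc
NFKBIA: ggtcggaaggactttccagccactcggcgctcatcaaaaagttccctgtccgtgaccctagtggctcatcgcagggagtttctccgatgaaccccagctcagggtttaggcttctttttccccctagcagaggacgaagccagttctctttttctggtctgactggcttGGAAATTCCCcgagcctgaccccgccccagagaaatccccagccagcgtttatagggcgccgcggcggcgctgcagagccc

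CXCL3, a ligand of the neutrophil receptor CXCR2, was at 125, 41.5 and 80.2 FPKM in CW14 and at 1.61, 2.47 and 0.873 in the combined libraries (-4.88, SE 0.38, limma adjusted p = 4.28e-06, and -4.65 without combined replicate 3). The lowest CW14 library was many times above every combined library. CXCL1 fell from 409.7, 120.5 and 249.96 to 13.6, 10.6 and 4.72 FPKM (-4.55, SE 0.47). CXCL2 fell from 446, 191 and 387 to 21.4, 18.1 and 5.39 FPKM (-4.52, SE 0.43). The groups did not overlap for either gene, as the rule for the largest falls required. In all 3 genes CW14 replicate 2 was the lowest of its group. CXCL8 encodes the neutrophil attractant interleukin-8. Its levels were 127, 28.7 and 124 FPKM in CW14 and 7.08, 2.90 and 0.550 in the combined group (-4.42, SE 0.64). CCL20, a chemokine for CCR6-bearing lymphocytes and dendritic cells, fell from 641, 228 and 369.5 to 21.9, 16.3 and 20.3 FPKM. Its OTA libraries were at 20.3, 14.3 and 19.0 FPKM, so the ranges of the combined and OTA libraries overlapped, and control was at 194, 120.0 and 87.9.

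Several cytokines were near the bottom of the scale in every group but CW14. CXCL10, a T cell attractant, was at 24.6, 9.27 and 18.2 FPKM in CW14 and 0.907, 1.73 and 0 in the combined group, beside 0.583, 1.60 and 0.427 in control. TNF was at 15.0, 9.76 and 19.1 FPKM in CW14 and 1.24, 1.38 and 0.842 in the combined group, beside 0.929, 0.755 and 1.02 in control. CSF2, which encodes GM-CSF, was at 8.86, 3.55 and 5.65 FPKM in CW14 and was listed at 0 in all 3 combined and all 3 control libraries, with 0.642, 0.523 and 0 under OTA. CSF3, the gene of G-CSF, was at 8.96, 3.38 and 11.5 FPKM in CW14 and 0, 0.186 and 0 in the combined group. LTB, a membrane lymphotoxin (-2.46), the growth factor CSF1 (-1.72) and the cytokine genes IL1B (-1.89), IL23A (-1.98) and LIF (-2.81) fell too. IL18 did not pass the test (0.04, adjusted p = 0.92), nor did IL32 (-0.66, adjusted p = 0.15). IL32 was at 367, 268 and 293 FPKM in CW14 and at 159.7, 115 and 395 in the combined group, and it passed without combined replicate 3 (-1.17). TNIP1, a partner of A20, was likewise not called (-0.45) and passed without that library (-0.91). CXCL16 fell by 0.80.

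The pathway's own inhibitors fell with its targets. NFKBIA, which encodes IkB-alpha, was at 624, 387 and 533 FPKM in CW14 and 36.5, 27.2 and 44.2 in the combined libraries (-3.80, SE 0.21). TNFAIP3, the ubiquitin-editing enzyme A20, went from 319.8, 143 and 310.1 to 19.2, 21.1 and 8.14 FPKM. All 3 combined libraries lay far below the lowest CW14 library in both genes. NFKBIZ (-4.01), BIRC3 (-3.55), BCL3 (-2.28) and NFKBIE (-2.02) were also lower. Of the factors themselves, REL (-2.05), RELB (-1.53) and NFKB2 (-1.03) fell, whereas RELA (-0.35, adjusted p = 0.0777) and NFKB1 (-0.72, adjusted p = 0.0753) did not pass, and passed without combined replicate 3 (-0.47 and -0.97). The adaptors RIPK2 (-1.17) and IRAK2 (-1.95), the adhesion molecule ICAM1 (-2.05), the mitochondrial superoxide dismutase SOD2 (-1.76), the prostaglandin synthase PTGS2 (-1.40) and the protease PLAU (-1.82) were lower as well. Of 41 genes listed for bacterial sensing and defence, only 14 were tested. CD14 (0.79) and LYZ (0.56) rose, a share of the 14 near the 14.8% of all genes. TLR3 fell (-0.80), a smaller share than the 17.5% of all genes. Without combined replicate 3 the counts were also 2 and 1, and TLR3 was at -0.50 and not called.

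**Figure D2:**
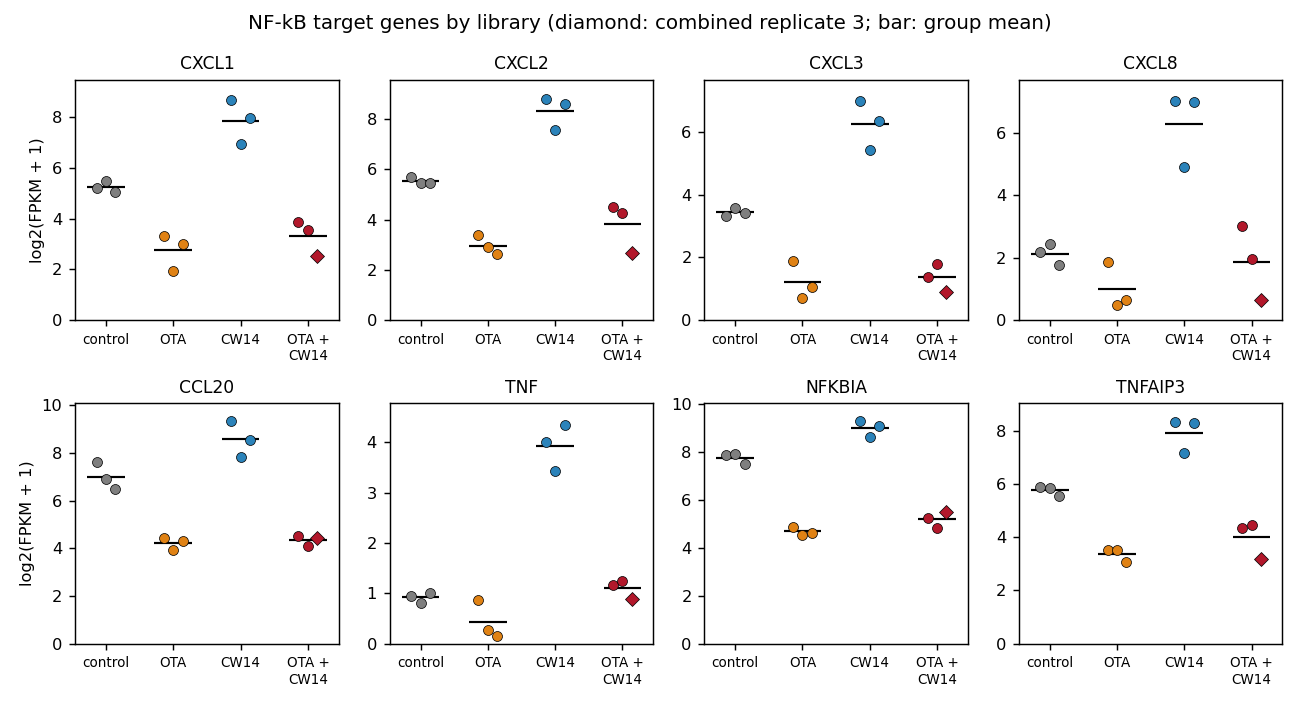
Level of 8 NF-kB target genes in each library (points, log2(FPKM + 1); the diamond is combined replicate 3) with the mean of each group of 3 (bar). In every panel the 3 CW14 libraries lie above the other 9, and the bar of the combined group lies below that of control in all panels but TNF, with overlapping points in CXCL8.

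Stress programmes divided, with p53 and integrated stress targets mostly lower and the remainder mixed. Of 29 p53 targets, 17 were lower and 1 (FDXR) higher, with a median of -1.26, and 17 were lower and 0 higher without combined replicate 3. BTG2, an antiproliferative cofactor of mRNA decay, fell from 312, 202 and 316 to 14.4, 16.1 and 6.40 FPKM (-4.44, SE 0.33). PMAIP1, the death-promoting protein NOXA, fell from 63.8, 26.6 and 51.5 to 3.68, 1.51 and 2.62 FPKM. GADD45A (-3.15) and GADD45B (-3.09), growth arrest genes, also fell. Among 26 cell death regulators 10 were lower and 3 higher (11 and 2 without combined replicate 3). The pair with opposed roles BCL2L1 (-1.16, survival) and BCL2L11 (-1.14, death) fell alike, as did CFLAR (-1.09), an inhibitor of caspase-8.

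The integrated stress response list had 14 of 27 members lower and 5 higher (15 and 5 without combined replicate 3). DDIT4, an inhibitor of mTORC1, fell from 1104, 665 and 866 to 57.5, 53.1 and 63.2 FPKM (-3.87, SE 0.20), and PPP1R15A, the phosphatase subunit GADD34, from 1106, 734 and 958 to 63.1, 75.7 and 76.2 FPKM. DDIT3, the transcription factor CHOP (-2.84), and CHAC1, a glutathione-degrading enzyme (-2.69), fell as well. The unfolded protein response was mixed, with 6 of 25 higher and 7 lower (5 and 7 without combined replicate 3). HERPUD1 (-2.05) and DNAJB9 (-1.91) fell, whereas the secretory chaperone genes SDF2L1 (1.101) and CRELD2 (1.03) rose. Heat shock genes gave 8 of 22 lower and 3 higher (8 and 1 without combined replicate 3). DNAJB1, an HSP70 partner, fell from 248, 161 and 136 to 44.1, 50.97 and 37.7 FPKM, and HSPA6 (-1.69) and HSPB8 (-1.54) fell with it. NFE2L2, the gene of NRF2 itself, fell by 1.75 (SE 0.18). Its target list gave 6 of 29 in each direction, beside 14.8% higher and 17.5% lower over all genes. Without combined replicate 3 the list gave 4 higher and 6 lower. In it SLC7A11 (-1.50) and MAFG (-1.42) fell.

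Metallothioneins, zinc-binding proteins, were uneven within the CW14 group. MT2A was at 918, 98.3 and 74.5 FPKM in CW14 and 21.5, 23.5 and 50.2 in the combined libraries (-2.64, SE 0.85), with replicate 1 far above the other CW14 libraries. Of 8 tested genes of metallothioneins and zinc 4 were lower, and 3 without combined replicate 3, where MT1X (-2.35, and -2.49 without it) lost its call. The zinc exporter gene SLC30A1, which responds to the same metal sensor, fell from 229.6, 94.3 and 98.8 to 26.9, 26.8 and 18.0 FPKM (-2.41, SE 0.36).

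Tight junction genes were lower in the combined group than in CW14. Of 35 tested, 20 were lower and 0 higher (median -0.51), with 21 lower without combined replicate 3 and 21 in the GC-adjusted fit. With only the groups compared in the fit the count was 9, the lowest among the alternatives. CLDN4, a claudin that seals against sodium, was at 2091, 1739.8 and 2038 FPKM in CW14 and 398, 378 and 316 in the combined libraries (-2.43, SE 0.14, limma adjusted p = 4.96e-07). The locus deposited for CLDN4 spans neighbouring genes, so its level is uncertain. OCLN, occludin, fell from 74.3, 69.2 and 78.7 to 32.4, 30.8 and 24.6 FPKM (-1.32, SE 0.14). TJP1, the scaffold ZO-1, fell from 50.9, 40.1 and 57.0 to 18.1, 17.8 and 9.86 FPKM (-1.66, SE 0.21), and -1.39 without combined replicate 3.

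For CLDN4, OCLN and TJP1 no combined library reached the lowest CW14 library. CLDN1 was at 104, 135 and 53.6 FPKM in the combined libraries, with replicate 3 the lowest, and fell (-0.89, or -0.52 without it). PARD6B, part of the apical polarity complex, fell (-2.22), as did CLDN23 (-2.15). Smaller falls were measured for CXADR (-0.79), MARVELD2 (-1.34, -0.69 without combined replicate 3), MARVELD3 (-0.47), F11R (-0.42), CGN (-0.46) and AMOTL2 (-1.56). The junction's contractile regulators MYLK (-0.76), the myosin light chain kinase, and ARHGEF2 (-0.56), a RhoA exchange factor, were also lower. CLDN7 was at 134, 109.8 and 120.0 FPKM in CW14 and 127, 89.9 and 136 in the combined group and did not pass the test, and neither did CLDN2 (0.39), the pore-forming claudin. CLDN3 did not pass (-0.47) and did without combined replicate 3 (-0.75).

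**Figure D3:**
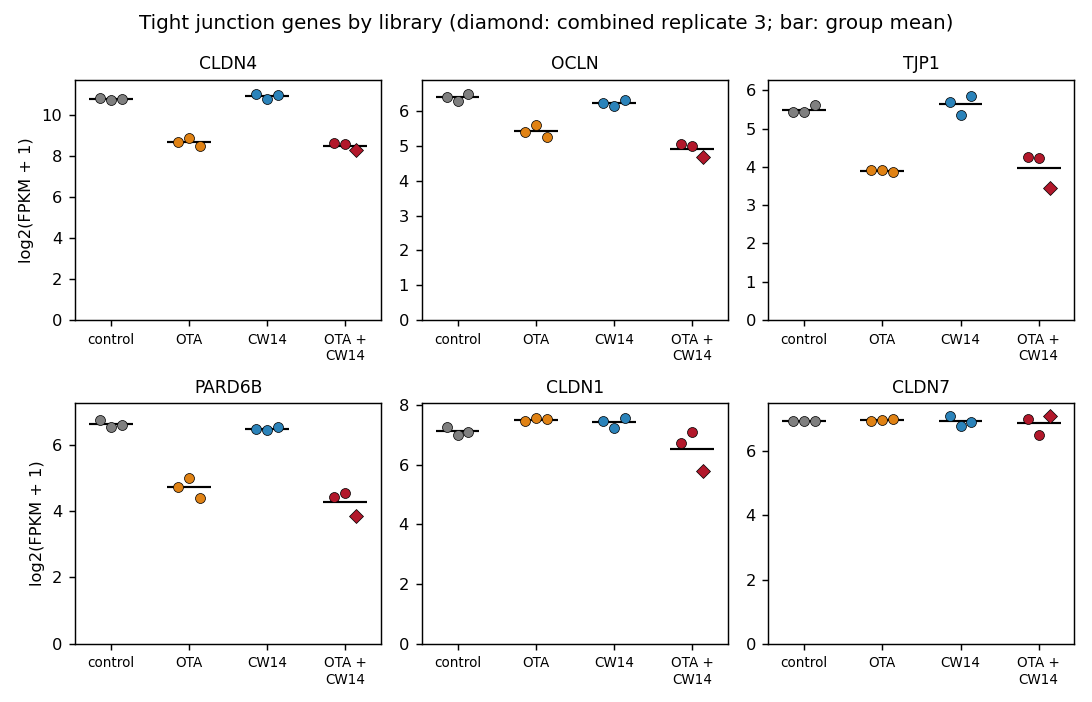
Level of 6 tight junction genes in each library (points, log2(FPKM + 1); the diamond is combined replicate 3) with the mean of each group of 3 (bar). CLDN4, OCLN, TJP1 and PARD6B are lower in all 3 combined libraries than in any CW14 library, and CLDN7 overlaps.

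Adherens junction and desmosome genes gave 7 of 20 lower and 1 higher, 9 and 2 without combined replicate 3. CTNNB1, beta-catenin, fell from 76.2, 68.8 and 67.8 to 44.7, 44.6 and 31.6 FPKM (-0.82, SE 0.14). The desmosomal cadherins DSC2 (-1.01) and DSG2 (-0.69) and the catenin CTNND1 (-0.54, -0.26 without combined replicate 3) were lower. In the actin list, 6 of 32 were lower and 5 higher, near the 17.5% and 14.8% of all genes. The counts were 9 and 5 without combined replicate 3 and 8 and 2 GC-adjusted. RND3 and RHOB, small GTPases that set actin contractility, fell from 200.4, 139 and 155 to 12.3, 15.8 and 10.0 FPKM and from 322, 333 and 313 to 36.0, 42.4 and 23.6 FPKM. FHL2 fell (-1.72), the myosin light chain gene MYL9 rose (1.39, 0.97 without combined replicate 3), and ACTB, beta-actin, did not pass the test (0.08, and -0.24 in the GC-adjusted fit). YAP targets gave 10 of 19 lower and 0 higher (9 lower without combined replicate 3). The matricellular genes CTGF (34.7, 47.5 and 37.7 to 7.78, 8.64 and 4.42 FPKM) and CYR61 (-2.08) and the kinase NUAK2 (-3.20) were among them.

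In the brush border list of enterocytes, 3 of 20 were lower and 1 higher, which is near the 17.5% of all genes that were lower. The count of lower genes was 6 without combined replicate 3 and 6 in the GC-adjusted fit. EZR, ezrin, fell from 219, 205 and 203 to 107, 102 and 114 FPKM, EPS8, an actin bundler of microvilli, fell (-1.63), and SLC9A3R1 (0.45) rose. Transporters gave 5 of 25 lower, near the 17.5% of all genes, and 1 higher. The counts were 7 and 2 without combined replicate 3 and 8 and 3 GC-adjusted. SLC11A2, the apical iron transporter, fell from 487, 420.5 and 362 to 232, 246 and 133 FPKM. SLC9A2 fell (-0.81), and SLC3A1 (-1.61) was listed at 0 in combined replicate 3 and was at -0.82 without it. Of 10 mucin and goblet cell genes tested, the 3 that were lower were the transmembrane mucins MUC13, MUC17 (-1.73) and MUC3A (-0.56), and 3 were lower without combined replicate 3. MUC13 was at 251, 209 and 195 FPKM in CW14 and 69.5, 63.3 and 77.0 in the combined libraries (-1.62, SE 0.15).

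Of 25 transcription factors of enterocytes and their precursors, 12 were lower and 0 higher (13 and 1 without combined replicate 3). ELF3, an epithelial ETS factor, fell from 433, 324 and 405 to 51.3, 48.5 and 72.6 FPKM (-2.74, SE 0.18). SOX9 (-2.40) and HES1 (-1.75), which mark progenitors, and KLF3 (-1.64) fell, as did the differentiation keratin KRT20 (-1.37), while EPCAM did not pass the test (-0.20). In the lipid absorption list 6 of 19 were higher and 4 lower (6 and 5 without combined replicate 3, and 5 and 2 GC-adjusted). APOA1, the main protein of high-density lipoprotein, was at 3488, 3131 and 3375 FPKM in CW14 and 7219, 5364 and 19185 in the combined group. Its rise was 1.44 on the log2 scale with combined replicate 3 and 0.90 without it. APOE (1.15, 0.82 without that library), SCARB1 (0.87, 0.64) and SLC27A4 (0.93, 0.64) rose in both.

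PCK1, in the list of gluconeogenesis and fatty acid oxidation, encodes a rate-limiting enzyme of glucose synthesis and was at 133, 89.9 and 79.0 FPKM in CW14 and 1.46, 1.97 and 3.47 in the combined libraries (-4.95, SE 0.29, limma adjusted p = 4.19e-07). PDK4, which restrains pyruvate oxidation, fell by 2.09, while ECHS1, an enzyme of fatty acid oxidation, rose (1.30, 0.84 without combined replicate 3). The list had 6 of 27 higher and 3 lower (6 and 4 without combined replicate 3). In glycolysis 4 of 23 were lower, near the 17.5% of all genes, and 2 higher, a smaller share than the 14.8% of all genes. The counts were 5 and 3 without combined replicate 3, and 5 and 1 GC-adjusted. PFKFB2 (-1.39) and hexokinase 2, HK2 (-1.07), were among those that fell. Cholesterol genes gave 7 of 27 higher and 6 lower (7 and 8 without combined replicate 3, and 4 and 8 GC-adjusted). INSIG1 (-1.34), a brake on sterol synthesis, fell from 741, 566 and 598 to 263, 265 and 221 FPKM, HMGCS1 (-0.98) fell, and TM7SF2 rose (1.72). Xenobiotic genes gave 5 of 39 lower, a smaller share than the 17.5% of all genes, and 3 higher (6 and 4 without combined replicate 3). The balance turned in the GC-adjusted fit, with 6 lower and 8 higher. CYP1A1, a target of the aryl hydrocarbon receptor, was at 43.8, 31.3 and 46.7 FPKM in CW14 and 14.7, 15.3 and 9.74 in the combined group, beside 12.0, 18.5 and 16.2 in control. TIPARP (-2.89), another target of that receptor, AHR itself (-1.52) and CYP3A5 (-1.78) also fell.

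DNA replication genes were higher with the toxin. Of 35 tested, 21 were higher and 1 (CCNE2) lower, with a median of 0.60, and 22 were higher without combined replicate 3 (median 0.55). The count was 7 with only the groups compared in the fit, where 3.90% of all genes were higher. MCM3, a subunit of the replicative helicase, was at 16.5, 15.7 and 16.3 FPKM in CW14 and 33.7, 34.4 and 55.7 in the combined libraries (1.26, SE 0.19). TK1, thymidine kinase, rose from 52.4, 38.2 and 48.1 to 96.2, 80.0 and 172 FPKM (1.24, SE 0.24). All 6 subunits MCM2 to MCM7 and all 4 GINS genes were among the 21. Mitosis genes did not follow: 1 of 33 was higher and 5 lower, with and without combined replicate 3. The share of lower genes was near the 17.5% of all genes, and that of higher genes was below the 14.8%. CENPA (-1.14) and ECT2 (-1.03) fell. The cell cycle factor FOXM1 rose from 45.1, 41.9 and 50.3 to 87.5, 85.2 and 100.2 FPKM.

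Replication-dependent histone genes, whose messages normally lack a poly(A) tail, gave 13 of 58 higher and 3 lower (15 and 2 without combined replicate 3). HIST1H2AL went from 0.893, 1.02 and 1.87 to 24.6, 15.3 and 22.7 FPKM (3.27, SE 0.26), and with OTA alone it was at 25.1, 15.7 and 17.3 against 3.19, 1.54 and 1.77 in control. HIST2H3A (2.79) and HIST1H2AJ (2.21) were also higher, and HIST1H2AH was listed at 0 in all 3 CW14 libraries and at 3.54, 4.51 and 7.78 FPKM in the combined ones. Histone genes are near-identical, so reads may be shared between them. Wnt target and crypt genes gave 8 of 22 higher and 0 lower, and 10 higher and 1 lower without combined replicate 3. PROM1, a stem cell surface protein, rose from 7.24, 6.46 and 7.16 to 18.5, 19.5 and 15.9 FPKM (1.25, SE 0.15). ASCL2, a factor of intestinal stem cells, rose from 16.5, 17.6 and 18.1 to 41.0, 35.5 and 47.7 FPKM, and TCF7 (1.15) and SP5 (1.12) rose with them.

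Nuclear genes of mitochondrial proteins were higher in the fit to all 12 libraries, to a degree that depended on combined replicate 3 and on the groups fitted. Of 75 nuclear-encoded respiratory chain genes, 29 were higher and 0 lower, with a median of 0.56 that fell to 0.28 without that library, while the count stayed at 29. That library was the highest of the 6 for 62 of the 75. NDUFS8, a complex I subunit, was at 19.3, 19.2 and 20.2 FPKM in CW14 and 39.6, 32.4 and 102 in the combined group (1.34, and 0.84 without it). NDUFS7 (1.28, 0.82) and UQCR11 (1.07, 0.74) showed the same pattern. Mitochondrial ribosomal proteins gave 21 of 77 higher and 0 lower (median 0.50), or 22 higher without combined replicate 3 (median 0.28) and 28 GC-adjusted. MRPL12 was at 47.4, 45.5 and 35.9 FPKM in CW14 and 99.6, 70.2 and 213 in the combined libraries, and MRPL20 (0.85) and MRPS12 (0.76) stayed higher without the third. With only the groups compared in the fit, where 3.90% of all genes were higher, 4 of the 75 respiratory chain genes were higher. Of the 77 mitochondrial ribosomal genes, 2 were higher in that fit, and both shares were near that of all genes.

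Proteasome genes gave 9 of 36 higher, with PSMB10 (1.16) and PSMD2 (0.99) among them. The count was 6 GC-adjusted, 6 without combined replicate 3 and 0 with only the groups compared. Aminoacyl-tRNA synthetases gave 6 of 36 higher, near the 14.8% of all genes, and 1 lower. In the GC-adjusted fit, where 13.9% of all genes were higher, 9 synthetases were higher and 0 lower. The shares of both lists without combined replicate 3 were near the 15% of all genes that were then higher. FARSA rose from 5.00, 5.01 and 4.82 to 13.4, 12.4 and 25.1 FPKM (1.53, SE 0.21) and HARS by 0.76 (0.47 without combined replicate 3, where 7 were higher and 1 lower). Ribosome biogenesis gave 11 of 50 higher and 2 lower, and 12 and 4 without combined replicate 3. PES1 (1.06), RRS1 (0.97) and NHP2 (0.97, 0.63 without that library) rose, and RRN3, the initiation factor of RNA polymerase I, fell from 33.3, 36.3 and 30.5 to 12.8, 14.6 and 6.11 FPKM. Of 77 cytosolic ribosomal protein genes, RPL9 was called lower (-0.86) and no other, against 5 lower without combined replicate 3, which was the highest library for 59 of them. The part of that library in these medians was not tested beyond leaving it out.

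**Figure D4:**
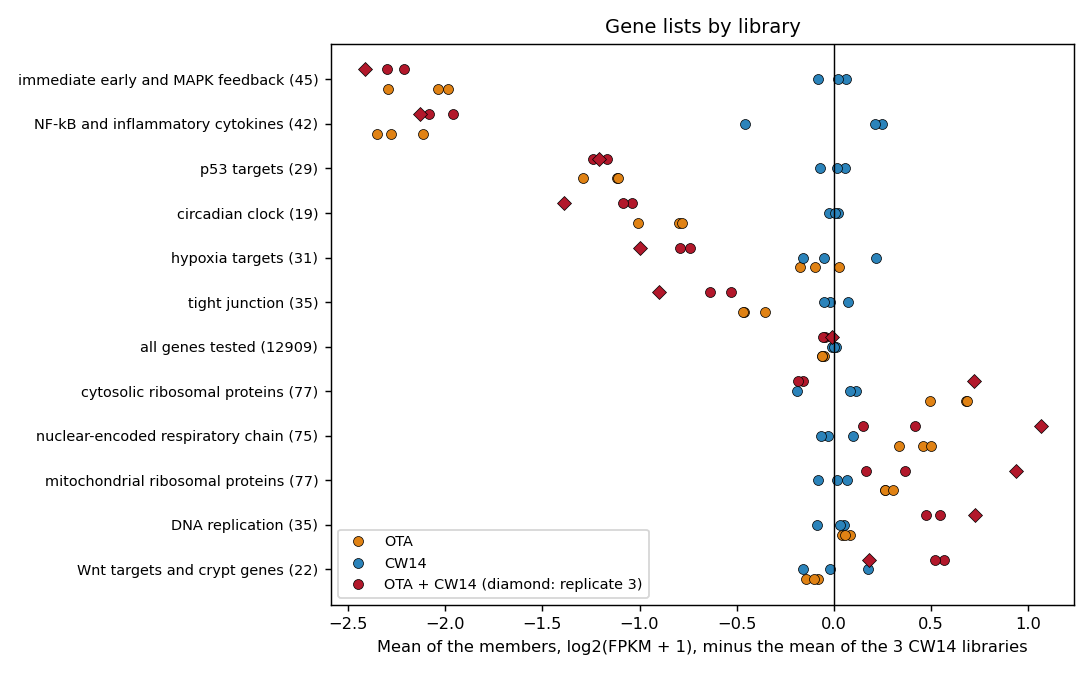
Mean of each list's members in each OTA, CW14 and combined library, as log2(FPKM + 1) minus the mean of the 3 CW14 libraries; the diamond is combined replicate 3. The lower lists are low in all 3 combined libraries, whereas the respiratory chain means of the combined libraries are 0.42, 0.15 and 1.06 and those of the cytosolic ribosomal proteins -0.16, -0.18 and 0.72.

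The largest rises outside the histone genes were few and mostly of low genes. CST1, which encodes the protease inhibitor cystatin SN, was at 17.0, 26.0 and 30.9 FPKM in CW14 and 184, 123 and 222.07 in the combined libraries (2.79, SE 0.45). Control was at 18.8, 89.3 and 70.1 FPKM, so the control range overlapped that of CW14 and lay below the combined group. IFITM3, an interferon-induced barrier to virus entry, went from 0.991, 1.14 and 2.07 to 22.6, 7.87 and 12.9 FPKM, and APOD, a lipid-binding protein, from 6.90, 6.85 and 8.47 to 36.7, 20.5 and 62.1 FPKM. The groups did not overlap in any of these, but the naming rule required that, so the separation adds no support. POMC, a hormone precursor, was at 0.423, 0.244 and 1.11 FPKM in CW14 and 4.41, 5.33 and 8.76 in the combined group, and the stress-responsive NUPR1 at 0.341, 0 and 1.07 and 4.26, 4.07 and 7.65. FAM71A (2.37) and EP300-AS1 (2.24) rose from below 1 FPKM. FAM156B (3.03) has a near-identical copy and EP300-AS1 overlaps another gene on the opposite strand, so both are uncertain. Among the largest falls without a well-known role, C6orf222 went from 146, 90.5 and 145 to 4.26, 5.04 and 5.57 FPKM, C11orf96 from 64.4, 31.4 and 68.1 to 2.72, 0.260 and 2.58 and LOC284454 from 72.7, 48.3 and 75.3 to 4.26, 1.11 and 4.74.

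The toxin effect with bacteria was then set beside the toxin effect without them, which shares no library with it. Of the genes called with bacteria, 1261 were called in the same direction in OTA against control, which is 30.2% of the former and 55.1% of the 2288 latter (17.7% of genes tested). By direction, 1076 genes were lower in both and 185 higher in both. Without combined replicate 3 the spread estimate changed for both comparisons, OTA against control had 4364 calls, and 2006 were shared, 46.1% of those with bacteria and 46% of those without. Of these, 1432 were lower in both and 574 higher in both. Across all 12928 genes tested the 2 differences correlated at a Pearson r of 0.46, with and without combined replicate 3. Across the 12859 genes other than small RNA genes r was 0.58 (0.61 without combined replicate 3). These are values across genes, which are not independent replicates.

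The 2 effects differed by the interaction test for 431 genes (3.33%), 239 with a more positive and 192 with a more negative effect when bacteria were present. Without combined replicate 3 the number was 1595 (12.3%), and all 431 were among them. Without control replicate 2 it was 19 and without control replicate 3 it was 17. Leaving out control replicate 1 gave 250, single OTA libraries 34 to 81, single CW14 libraries 93 to 247, combined replicate 1 184 and combined replicate 2 1521. The balance of directions depended on scaling, with 171 more positive and 262 more negative after median-centring and 245 and 304 GC-adjusted.

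In the NF-kB list, 12 of 42 had a more negative effect with bacteria and 0 a more positive one, against 1.49% and 1.85% of all genes. Without control replicate 2, and likewise without control replicate 3, 1 was more negative. CSF2 led with an interaction of -3.18 (SE 0.40, limma adjusted p = 0.00737), followed by CXCL10 (-3.04), LTB (-2.76), CXCL3 (-2.67), CSF3 (-2.63) and TNF (-2.33). In control, CSF2, CXCL10, CSF3 and TNF were near the bottom of the scale. A fall under OTA alone could hardly show in those genes, so their ranking gives no measure of how the bacteria altered the toxin effect. ICAM1 was at 91.3, 42.6 and 87.6 FPKM in CW14 and 16.4, 16.8 and 15.1 in the combined group, but at 25.1, 23.1 and 21.5 in control and 19.5, 17.2 and 18.1 with OTA. RCAN1, an inhibitor of calcineurin, was at 391, 188 and 440.2 FPKM in CW14 and 20.1, 29.9 and 10.1 in the combined group, beside 90.0, 75.7 and 78.4 in control and 21.0, 18.8 and 19.5 with OTA. In both genes the CW14 libraries were the highest of the 4 groups and did not overlap the combined libraries, which the naming rule required of RCAN1.

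Among the 8 largest more positive effects were several developmental regulators. SOX2, a pluripotency factor, was at 2.54, 2.50 and 4.15 FPKM in CW14 and 11.7, 7.51 and 10.00 in the combined group, but at 2.36, 5.59 and 8.13 in control and 1.73, 1.28 and 1.16 with OTA (interaction 2.71, SE 0.45, limma adjusted p = 0.0164). The locus deposited for SOX2 spans a neighbouring transcript. DKK1, a secreted Wnt inhibitor, was at 114, 102 and 162 FPKM in CW14 and 234, 198 and 131 in the combined group, which did not pass the test, against 246, 270.0 and 465 in control and 63.0, 88.6 and 68.9 with OTA (interaction 2.65). FOXQ1 (2.09) had the same form, with a fall under OTA alone (-2.41) and -0.32 with bacteria. SP5, a Wnt-induced factor, fell with OTA alone (-0.97) and rose with bacteria (1.12). PUS1, a pseudouridine synthase, did the same (-1.01 and 1.06).

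Opposed calls were few. The toxin changed 61 genes in opposite directions with and without bacteria, 30 lower with bacteria and higher without, and 31 the reverse. Without combined replicate 3, where more genes were called, the number was 182, and it was 22 without control replicate 2 and 17 without control replicate 3. Hypoxia targets made up 6 of the 30. In their list, 16 of 31 were lower with bacteria and 0 higher (median -0.67), against 5 lower and 9 higher with OTA alone (median 0.35; 5 higher without control replicate 2 and 3 without control replicate 3), and 10 passed the interaction test with a negative sign. Without control replicate 2, and likewise without control replicate 3, 1 passed it. The count of lower genes was 16 without combined replicate 3 and 10 with only the groups compared in the fit. INSIG2, a brake on cholesterol synthesis, named with the following genes after the values were seen, was at 55.6, 86.1 and 50.1 FPKM in CW14 and 33.0, 34.7 and 23.8 in the combined group. Without bacteria it went from 48.5, 44.2 and 40.5 FPKM in control to 88.0, 93.6 and 92.8 with OTA. MXI1, BNIP3L, ERO1L, P4HA1 and NDRG1 were also called lower with bacteria and higher without (-0.999 and 0.59, -0.67 and 0.75, -0.67 and 0.55, -0.59 and 0.59, -0.56 and 0.62). CW14 replicate 2 was the highest CW14 library for INSIG2, MXI1, BNIP3L, ERO1L and NDRG1, and 14 of the 31 were lower without it. Other hypoxia genes fell in both settings, among them DDIT4, BHLHE40 (-2.99 and -2.20), ADM (-1.58 and -2.53) and VEGFA (-1.21 and -0.84).

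Of the 31 genes higher with bacteria and lower without, 2 were in the DNA replication list, 2 in the ribosome biogenesis list and 1 in the Wnt and crypt list. FEN1, the flap endonuclease, was at 42.3, 40.5 and 44.6 FPKM in CW14 and 70.1, 70.6 and 62.3 in the combined group. Without bacteria it went from 38.2, 48.7 and 50.5 FPKM in control to 28.5, 31.5 and 31.2 with OTA. GINS3 (0.73 and -0.83), NOP2 (0.77 and -0.82) and IMP3 (0.53 and -0.58) showed opposite calls too. Without combined replicate 3 the rises with bacteria were 0.51 for NOP2 and 0.35 for IMP3. In the lists, 6 of 35 DNA replication, 8 of 50 ribosome biogenesis and 4 of 22 Wnt and crypt genes had a more positive toxin effect with bacteria, and 0 a more negative one, against 1.85% and 1.49% of all genes. Without control replicate 2 or control replicate 3 no more than 2 genes of any of these lists passed the interaction test.

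**Figure D5:**
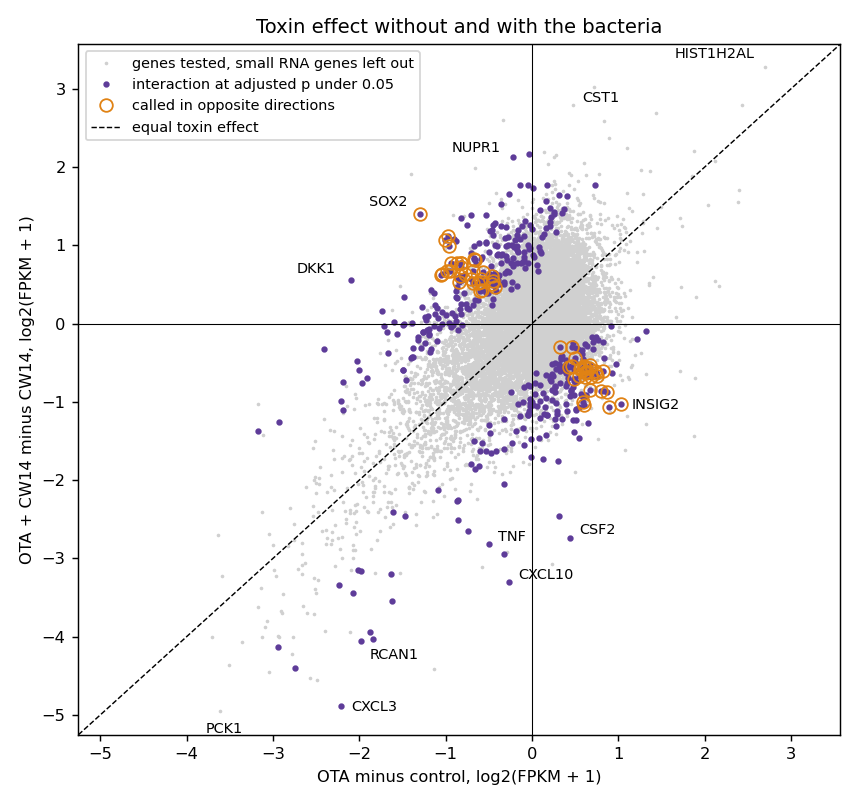
Toxin effect on each gene without bacteria (OTA minus control, horizontal axis) and with bacteria (combined minus CW14, vertical axis), both on the log2(FPKM + 1) scale; small RNA genes are left out and the dashed line marks equal effects. The 431 genes that passed the interaction test are purple, and the 61 called in opposite directions are circled, lying to the upper left and the lower right.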

How the data were processed

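Messenger RNA libraries of Caco-2 cells were sequenced as paired reads, per the labels. The deposited table holds FPKM values for 26125 genes in 12 libraries, made by the authors. Per the submitters' processing notes, cutadapt 1.10, TopHat2 2.0.13, Cufflinks 2.2.1, Cuffnorm, Cuffdiff and the build hg19 were used, and the gene annotation is not given in the sources used here. Absolute depth cannot be read from FPKM, so precision was judged from the spread between libraries.

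Values were transformed to log2(FPKM + 1), genes whose mean was under 1 FPKM were left out (12928 stayed), and limma 3.58.1 (R 4.3.3) was fitted to all 4 groups of 3, which share 1 estimate of the spread. Contrasts were combined minus CW14, OTA minus control and their difference, the interaction. The Benjamini-Hochberg adjustment ran over every tested gene, and the threshold was an adjusted p of 0.05. The fit was tested on simulated data in which all libraries had the same spread for a gene. That test therefore did not cover the larger spread of combined replicate 3. Same-numbered libraries did not deviate together (r of -0.041, -0.088 and -0.076 for CW14 and combined), so no block was used. Alternatives were another pseudocount or filter, other scalings, array weights, a replicate block, only the groups compared and each library left out. A GC adjustment, with and without combined replicate 3, was chosen after seeing the data. GC content came from GENCODE transcripts matched by name (97.4% of genes) and promoters from RefSeq GRCh38.p14, and no coordinates were carried between builds.

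The comparison, gene lists and tests were chosen with earlier results of these data known. Named genes were the 12 largest rises and 12 largest falls that were called with and without combined replicate 3, did not overlap between groups and reached 5 FPKM. Up to 4 called, non-overlapping genes of each list, the 8 largest interactions each way, members of the NF-kB and tight junction lists and 4 housekeeping genes were also named. Separation of the groups in genes named for non-overlap followed from their selection. Outside that rule, EGR1, FOS, JUN, MYC, IER5L, SRF, FDXR, CCNE2, INSIG2, MXI1, BNIP3L, ERO1L, P4HA1, NDRG1, FEN1, GINS3, NOP2, IMP3, VEGFA, TLR3, IRF3 and genes listed only by membership were chosen after their values were seen. Small RNA genes (69 tested) and symbols altered to dates (19 tested) stayed in the fits and are not named. Some genes are not reported here.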

Additional observations from a re-analysis of the deposited data

Results flagged for a closer look

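The toxin effect differed with and without bacteria by the interaction test of limma for 431 genes (3.33%), and the following genes named in the text were among them. Values are the effect with bacteria minus the effect without, on the log2(FPKM + 1) scale.

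More negative effects with bacteria were measured for the cytokine and NF-kB genes CSF2 (-3.18), CXCL10 (-3.04), LTB (-2.76), CXCL3 (-2.67), CSF3 (-2.63), TNF (-2.33), SOD2 (-2.06), BIRC3 (-1.93), ICAM1 (-1.72) and RIPK2 (-1.12). The stress and immediate early genes ATF3 (-1.20), JUN (-1.37) and GADD45A (-1.13) and the calcineurin inhibitor RCAN1 (-2.06) were next to them. Hypoxia and metabolic genes in this direction were INSIG2 (-2.05), HK2 (-1.62), MXI1 (-1.59), BNIP3L (-1.42), ERO1L (-1.22), P4HA1 (-1.18) and NDRG1 (-1.18). Epithelial genes were MUC17 (-1.86), MUC13 (-1.09), SLC11A2 (-1.60) and CYP1A1 (-1.46). RPL9 (-1.65), CLK1 (-1.18), C6orf222 (-1.66) and LOC284454 (-2.19) completed this side. CSF2, CXCL10, CSF3 and TNF were near the bottom of the scale in control, where a fall under OTA alone could hardly show.

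More positive effects with bacteria were measured for the developmental regulators SOX2 (2.71), DKK1 (2.65), FOXJ1 (2.09), FOXQ1 (2.09), SP5 (2.09) and ASCL2 (1.35). Genes of DNA synthesis and the cell cycle were GINS3 (1.56), TK1 (1.36), MCM3 (1.28), FEN1 (1.23) and FOXM1 (0.89). Genes of RNA and protein synthesis were PUS1 (2.07), FARSA (1.88), NOP2 (1.60) and IMP3 (1.11), and the remaining genes were NUPR1 (2.34) and POMC (2.19). Of these 46 genes, 5 were called in every alternative run and 0 changed sign in any. Without control replicate 2, 41 lost the call, and likewise 41 without control replicate 3.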

How the results depend on the processing

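Counts of called genes moved with several settings. For the combined group against CW14 (4179 genes), the count was 1521 with only the groups compared in the fit, 7991 with array weights and 2744 with only those groups and without combined replicate 3, and leaving out 1 library gave 2780 (without CW14 replicate 2) to 5297. For the interaction (431 genes) it was 235 with no filter, 5124 with array weights and 1497 GC-adjusted without combined replicate 3, and leaving out 1 library gave 17 (without control replicate 3) to 1595. For OTA against control (2288 genes) it was 4621 with only those groups, 5864 with array weights and 4487 GC-adjusted without combined replicate 3, and leaving out 1 library gave 1299 to 4364. With the replicate block the counts were 3952 for the combined group against CW14 and 286 for the interaction, and the replicate numbers did not pair the libraries. Other totals were within 1.5 times, though counts by direction could move more, and the cause of these shifts was not tested. Of 197 called genes named for the combined group against CW14, 143 were called in the same direction in every alternative, 0 had the opposite sign in any, and 50 lost the call with only the groups compared. Signs turned only for 6 genes that were not called. IL18 was -0.084 with array weights, -0.13 GC-adjusted without combined replicate 3, -0.29 with only the groups compared and without that library, and -0.29 to 0.34 over single libraries left out. CLDN7 was 0.027 with array weights and -0.18 to 0.12 over those, and IER5L -0.35 to 0.10. ACTB was -0.0066 after quantile normalization, -0.24 GC-adjusted and -0.13 in that fit without combined replicate 3. With array weights VIL1 was -0.0086 and FOXQ1 0.076. FPKM carries no counts, so the precision of low genes could not be given from depth, and the lowest relative depth was that of combined replicate 3.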

Other observations

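Over all genes tested, 17.5% were lower in the combined group, or 18.7% without combined replicate 3. Of 19 circadian clock genes, 13 were lower and 0 higher (median -1.12), and 14 were lower without combined replicate 3. NR1D1, the repressor REV-ERB alpha, was at 55.6, 49.2 and 49.3 FPKM in CW14 and 9.95, 7.92 and 9.19 in the combined group. NR1D2 (-2.27) and PER1 (-1.83) fell on the log2 scale. Genes of TGF-beta, BMP and ID proteins gave 11 of 21 lower and 1 higher, or 12 and 2 without combined replicate 3. SMAD7, the pathway's inhibitor, went from 13.5, 12.5 and 12.4 to 0.943, 1.80 and 0.982 FPKM, and BMP2 (-2.34) and SKIL (-2.12) fell as well. Factors of message decay and growth arrest gave 12 of 21 lower and 1 higher, or 11 and 2 without that library. ZFP36, which destabilises AU-rich messages, was at 768, 488 and 753 FPKM in CW14 and 46.9, 53.1 and 25.9 in the combined group, and ZC3H12A, the nuclease regnase-1, fell by 3.28.

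C2H2 zinc finger genes gave 109 of 359 lower and 16 higher (91 and 19 without combined replicate 3, and 105 and 12 in the GC-adjusted fit). ZNF165 went from 46.1, 48.3 and 37.0 to 6.54, 6.25 and 6.63 FPKM. Splicing factors gave 10 of 32 lower and 2 higher, or 12 and 5 without combined replicate 3 and 8 and 4 GC-adjusted. CLK1, a kinase of SR proteins, was at 51.6, 45.0 and 37.6 FPKM in CW14 and 3.89, 3.68 and 4.75 in the combined group, and SRSF6 fell by 1.55. Interferon response genes gave 10 of 27 lower and 3 higher, or 10 and 1 without combined replicate 3. IRF1 went from 62.8, 30.2 and 59.4 to 12.7, 7.38 and 23.8 FPKM and IFIT2 fell by 1.63, whereas IFI6 rose from 5.64, 5.27 and 8.85 to 24.5, 21.0 and 50.04 FPKM. IFI27 (1.37) and IRF3 (0.52) were called higher, but not without combined replicate 3 (1.105 and 0.37). Among noncoding genes, LINC and antisense entries gave 40 of 395 higher and 45 lower (36 and 52 without combined replicate 3). Both were smaller shares than the 14.8% and 17.5% of all genes. IDI2-AS1 fell from 91.2, 76.3 and 68.3 to 4.78, 12.5 and 0.752 FPKM, which is uncertain because the counting is not stated to use strand.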
